A study of Homo sapiens with 8 samples.

Results

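The 9 anterior HOX genes described here, from paralog groups 1 to 4, were followed through neural differentiation of a human embryonic stem cell line: HOXA2, HOXA3 and HOXA4 of the HOXA cluster, HOXB1, HOXB2, HOXB3 and HOXB4 of the HOXB cluster, and HOXD1 and HOXD3 of the HOXD cluster. They were taken by gene symbol, 9 of the 35940 symbols in the table, and each had 1 Ensembl row. All libraries came from wild type ESI017 cells, an embryonic stem cell line. They were differentiated toward a posterior neural fate in N2B27, a defined medium without serum, to which SB (10 µM) and LDN (100 nM) had been added. Per the labels and the design text, WNT3A protein (300 ng/mL) was added at 34 h, and RNA was taken at 34, 42, 50 and 72 h, so the later groups had 8, 16 and 38 h with WNT3A. Each time point had 2 libraries, replicate 1 and replicate 2. The design text calls the second set of samples an independent biological replicate, and the labels number it as a second batch. Every group shared the line, the medium and both inhibitors. An arm without WNT3A was not analysed here, and time in culture and the WNT3A cannot be told apart in any comparison.

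HOX genes encode homeodomain transcription factors that give cells their position along the head-to-tail axis. They lie in clusters, and genes at the same place in different clusters are paralogs and share a group number. Genes of low group number lie at the 3′ end of a cluster, are in general switched on earlier and reach farther toward the head, an order known as collinearity. In the hindbrain the anterior groups mark segments called rhombomeres, and retinoic acid, WNT and FGF signals are known to act on their onset.

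The values are TPM, a gene's share of a library's transcripts corrected for transcript length, so levels can be compared between genes. Changes are differences on the log2(TPM + 1) scale, which understates changes of low genes, with a standard error (SE) and an adjusted p from limma over all 14908 tested genes. A gene was tested if 2 or more libraries reached 1 TPM for it, and an adjusted p under 0.05 was called a change. TPM keeps no read depth, so a 0 is given as listed at 0 and no detection limit was set. These were bulk samples, in which fewer cells with a transcript and less transcript per cell cannot be told apart.

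The libraries were even in the number of genes they showed, with 13860 to 14004 symbols at 1 TPM or more. The 6 markers of pluripotent cells summed to between 2425 and 2461 TPM at 34 h and to 619 and 636 TPM at 72 h. The 5 neural progenitor markers summed to 367 and 384 TPM at 34 h and to 620 and 667 TPM at 72 h. These sums do not stand for every member. POU5F1 held 354.5 and 387.6 TPM of the pluripotent sum at 72 h, where TDGF1 had only 2.94 and 6.13 TPM. PRDM14 went the other way after 50 h, from 11.9 and 9.64 TPM to 28.8 and 24.5 TPM. SOX2 (223.6 and 211.3 TPM) and NES (137.3 and 132.3 TPM) made up most of the neural sum at 34 h, with SOX1 at 1.63 and 2.14 TPM. The 7 markers of nascent and paraxial mesoderm, a tissue that also uses HOX genes, summed to between 4.62 and 7.74 TPM in every library. MSGN1 was listed at 0 in all 8, and TCF15 had the largest value of the 7 in each. The sum hides a course of MIXL1. It had 0.115 and 0.108 TPM (34 h), 1.66 and 1.32 TPM (42 h), 1.47 and 1.81 TPM (50 h) and 0.333 and 0.29 TPM (72 h). The 6 neural crest markers summed to 7.08 and 9.02 TPM (34 h), 4.14 and 6.78 TPM (42 h), 5.66 and 6.37 TPM (50 h) and 12.4 and 14.1 TPM (72 h). Their gain after 50 h, in PAX3 and SNAI2, fell in the interval in which HOXB1, HOXB2 and HOXA2 rose, while FOXD3, TFAP2A and TFAP2B were under 0.1 TPM in both 72 h libraries. The part of crest or mesoderm cells in the HOX values was not tested.

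To show the DNA next to the genes that changed most, the upstream windows of RefSeq promoters (GRCh38.p14) were searched on both strands for TGATNNAT, the paired site of HOX and PBX proteins, TGACAG, a site of the MEIS and PKNOX cofactors, ATCAAAG, the core of TCF/LEF sites, and AGGTCA and AGTTCA, sites of retinoid receptors. No matches overlapped. Windows of 250 bases before the start were held for 6 of the 9 genes, HOXA2, HOXA3 (7 starts), HOXA4, HOXB1, HOXD1 and HOXD3; HOXB2, HOXB3 and HOXB4 had none. The window of HOXB1, the gene with the highest level, lies at chr17:48531012-48531261 on the minus strand and is printed whole, with its match to TGATNNAT in capitals, 125 bases before the start.
HOXB1: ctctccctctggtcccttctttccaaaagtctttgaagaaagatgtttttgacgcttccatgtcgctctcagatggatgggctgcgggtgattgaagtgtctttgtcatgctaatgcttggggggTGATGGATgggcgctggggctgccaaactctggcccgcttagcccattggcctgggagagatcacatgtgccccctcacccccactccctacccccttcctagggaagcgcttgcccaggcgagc
The HOXA2 window held both a TGATNNAT match (on the opposite strand, chr7:27102779-27102808, minus strand of the chromosome) and a TGACAG match (chr7:27102712-27102741), each shown within 30 bases. The RefSeq start of HOXA2 lies inside the gene as GENCODE release 29 draws it (chr7, 27100354 to 27102811), so both HOXA2 matches are upstream of the RefSeq start but within the GENCODE gene. HOXA4, a gene that was listed at 0 throughout, is shown for contrast with its TGACAG match (chr7:27130846-27130875).
HOXA2 at TGATNNAT: gacttttttggATCAATCAaacagacagtg
HOXA2 at TGACAG: aagcaatcatgTGACAGccaattcggtcca
HOXA4 at TGACAG: gagtgggcactTGACAGcggggggagggga

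Among all 35116 promoter windows of this length 6.47% held TGATNNAT and 13% held TGACAG. HOXB1 and HOXA2, with the TGATNNAT matches, are both genes with a called rise between 50 and 72 h. HOXB2, the other gene with that call, had no window, and no link between matches and calls was tested. The 1 other match was AGTTCA in the window of the farthest upstream HOXA3 start, a motif held by 8.8% of all windows. ATCAAAG and AGGTCA, held by 2.26% and 12.1%, had no match in the 12 windows searched. The matches are letters in a window and say nothing of binding. In base composition the windows of the genes that rose and of those at or near 0 overlapped. HOXB1 and HOXA2 had 57.2% and 47.2% G and C and the 7 HOXA3 windows 43.2% to 72%, while HOXD3, HOXA4 and HOXD1 had 59.2%, 70% and 74.8%, against a median of 58% over all windows.

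The 9 genes did not start together, and their order did not follow the group numbers within the HOXA cluster. No transcript of the 9 was listed above 0 at 34 h. A gene was counted as reached when both libraries of a time point had at least 1 TPM, and 0 genes met this at 42 h, 1 at 50 h (HOXA3) and 4 at 72 h (HOXA2, HOXA3, HOXB1 and HOXB2). HOXB3 stood just outside, with 1.25 and 0.783 TPM at 72 h, and HOXA3 just inside, with 1.21 and 1.14 TPM. HOXD1 stayed under 0.22 TPM in every library. HOXA4, HOXB4 and HOXD3 were listed at 0 in all 8 libraries, so no group 4 gene of the set had a value above 0.

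**Figure D1:**
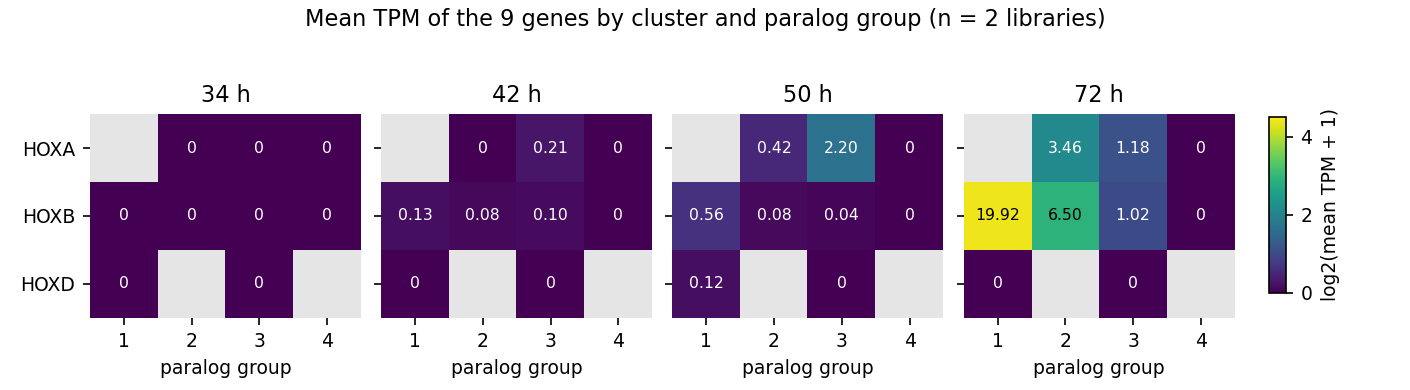
Mean TPM (n = 2 libraries) of the 9 genes at each time point, laid out by cluster (rows) and paralog group (columns), with the color on a log2(mean TPM + 1) scale; gray fields hold none of the 9 genes. HOXA3 had the highest mean at 50 h (2.20 TPM) and HOXB1 at 72 h (19.92 TPM), and the group 4 fields stayed at 0.

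Of the 9 genes 4 passed the filter on low values, HOXA2, HOXA3, HOXB1 and HOXB2. Because all were at 0 at 34 h, a gene could pass only by being higher later, and the counts of calls against 34 h carry no support of their own. Against 34 h, limma called 0 of the 4 at 42 h (0 also at an unadjusted p under 0.05), where 1.78% of all tested genes were raised. At 50 h it called 1 of the 4, HOXA3, against 3.52% raised among all genes, and at 72 h all 4, against 12.7%. Between successive time points it called 0 of the 4 from 42 to 50 h (1 at an unadjusted p under 0.05, HOXA3), against 0.0604% raised. From 50 to 72 h it called 3 of the 4, HOXB1, HOXB2 and HOXA2, all raised, against 2.92%. These 3 genes reached 1 TPM in the 72 h libraries alone and so passed the filter only through them, which fixed their direction in that interval: the count is a description and carries no support either.

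Group 1 was represented by HOXB1 and HOXD1. HOXB1 is known for its band of activity in the fourth rhombomere, where its protein acts with PBX partners on its own gene. It lies on chromosome 17, from 48528526 to 48531001 on the minus strand (GENCODE release 29, GRCh38), 9.89 kb from HOXB2, with no other annotated gene over it. HOXB1 was listed at 0 in both 34 h libraries. Replicates 1 and 2 then had 0.0548 and 0.197 TPM (42 h), 0.688 and 0.434 TPM (50 h) and 18.5 and 21.3 TPM (72 h).
Each time point from 42 h on lay apart from the one before it in both libraries, and nearly all of the final level came after 50 h: the 50 h level was 3.72% and 2.03% of the 72 h level in replicates 1 and 2. The change from 50 to 72 h was 3.75 ± 0.23 (SE; limma adjusted p 0.00012), with 3.53 and 3.96 within the replicate numbers. Earlier changes were 0.17 ± 0.23 from 34 to 42 h and 0.47 ± 0.23 from 42 to 50 h (limma adjusted p 0.849 and 0.593). The difference of 0.64 ± 0.23 between 50 and 34 h did not pass (limma adjusted p 0.161), and passed with a pseudocount of 0.1 (0.0394; range over the alternatives 0.0394 to 0.392).

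HOXD1, the other group 1 gene, was listed at 0 in 6 of the 8 libraries. At 50 h it had 0.0395 and 0.21 TPM, and at 72 h it was back at a listed 0 in both libraries. The 50 h libraries were thus the only ones above 0, at a level below that of HOXB1 in the same libraries. In the fit without a filter on low values the difference from 50 to 72 h was -0.17 ± 0.08 (limma adjusted p 0.391). HOXD1 lies on chromosome 2, from 176188579 to 176190907 on the plus strand, under the antisense gene HAGLR.

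Group 2 held HOXA2 and HOXB2. HOXA2 has the most anterior limit of the HOX genes in the hindbrain and patterns the second pharyngeal arch, and HOXB2 is a known target of HOXB1 and of EGR2 in the hindbrain. HOXA2 was listed at 0 in all 34 and 42 h libraries, then 0.431 and 0.419 TPM (50 h) and 4.04 and 2.87 TPM (72 h). Both 72 h libraries were far above both 50 h libraries, which were nearly equal. Its change from 50 to 72 h was 1.63 ± 0.26 (limma adjusted p 0.00938; 1.82 and 1.45 within the replicate numbers). That call was lost with a pseudocount of 0.1 (limma adjusted p 0.106), without 50 h replicate 2 (0.0512) and without 72 h replicate 1 (0.086) (0.00279 to 0.106 across all alternatives). HOXA2 lies on chromosome 7, from 27100354 to 27102811 on the minus strand, and no other annotated gene overlaps it.

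HOXB2 was below HOXA2 at 50 h and above it at 72 h. From a listed 0 at 34 h it came to 0.0969 and 0.0538 TPM (42 h), 0.0991 and 0.0655 TPM (50 h) and 6.72 and 6.29 TPM (72 h). The 42 and 50 h libraries overlapped, and the 72 h libraries stood far apart from them. The change was 0.01 ± 0.24 from 42 to 50 h (limma adjusted p 0.998) and 2.79 ± 0.24 from 50 to 72 h (limma adjusted p 0.000592; 2.81 and 2.77 within the replicate numbers). HOXB2 was at 1.48% and 1.04% of its 72 h level at 50 h, where HOXA2 was at 10.7% and 14.6% of its own. HOXB2 lies on chromosome 17, from 48540894 to 48544989 on the minus strand, and the antisense gene HOXB-AS1 overlaps it. The sources used here do not say whether the libraries kept strand, so reads of such antisense partners cannot be told apart from those of HOXB2, HOXA3, HOXB3 and HOXD1.

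**Figure D2:**
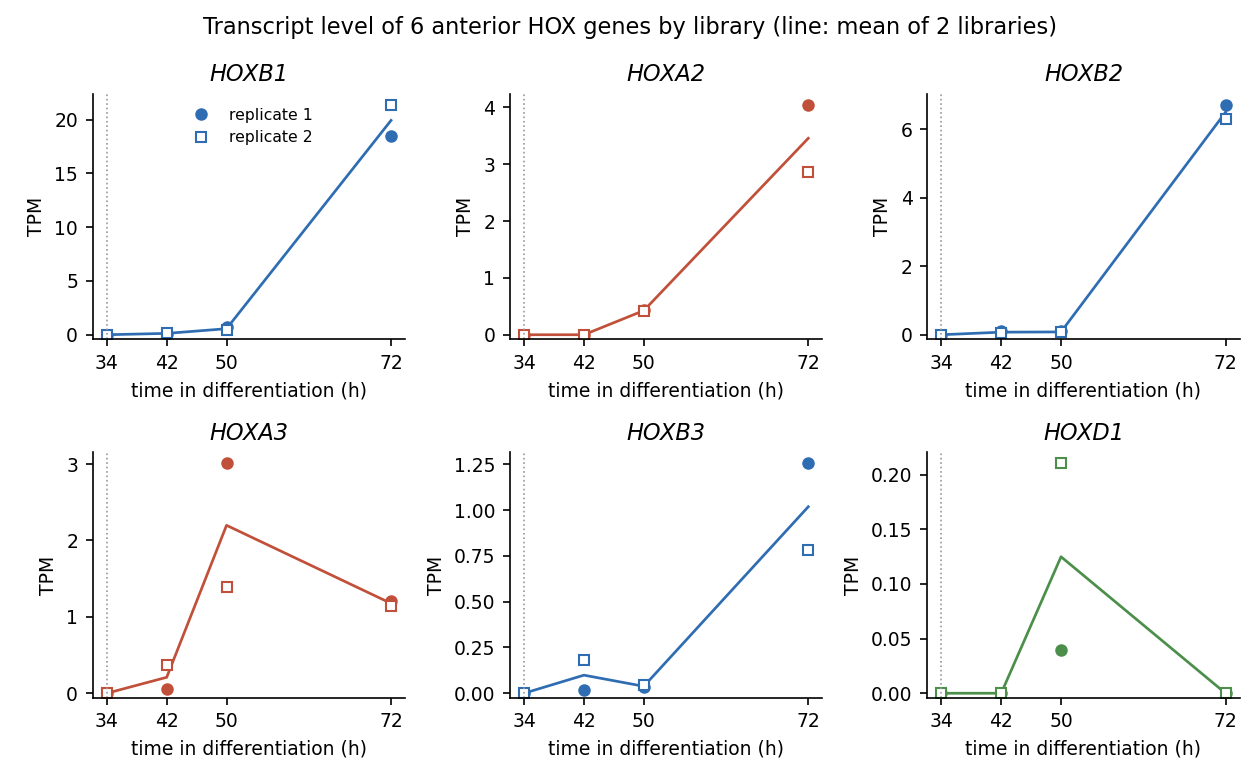
TPM (vertical axis, a separate scale in each panel) against hours of differentiation for the 6 genes above 0 in any library; filled circles are replicate 1, open squares replicate 2, the line joins the means and the dotted line at 34 h is the addition of WNT3A. HOXB1, HOXB2, HOXA2 and HOXB3 had their highest levels at 72 h, and HOXA3 and HOXD1 had theirs at 50 h.

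Group 3 held HOXA3, HOXB3 and HOXD3, whose proteins act in the posterior hindbrain and the pharyngeal arches. HOXA3, like HOXD1 at a far lower level, had its highest values at 50 h. After a listed 0 in both 34 h libraries it had 0.0501 and 0.367 TPM (42 h), 3.01 and 1.39 TPM (50 h) and 1.21 and 1.14 TPM (72 h). All 50 h values lay above all 72 h values, while the 50 h replicates lay farther from each other than the lower one lay from 72 h. The difference from 34 h was 1.63 ± 0.32 at 50 h (limma adjusted p 0.0219; 2.00 and 1.26 within the replicate numbers) and 1.12 ± 0.32 at 72 h (0.0369; 1.14 and 1.10). The step from 42 to 50 h, 1.37 ± 0.32, and the difference from 50 to 72 h, -0.51 ± 0.32, did not pass (limma adjusted p 0.222 and 0.397), so neither a rise in the first interval nor a fall in the second was called.
Both HOXA3 calls changed when single libraries were left out. At 50 h the call was lost without 34 h replicate 1 (limma adjusted p 0.105), 34 h replicate 2 (0.113) or 50 h replicate 1 (0.115), where the difference was 1.26, and with 34 and 50 h fitted alone (0.0763; range over the alternatives 0.0153 to 0.115). At 72 h it was lost without any 1 of the 34 h libraries (0.116 and 0.126) or of the 72 h libraries (0.134 and 0.123; range 0.0155 to 0.134).
HOXA3 lies on chromosome 7, from 27106184 to 27152581 on the minus strand, a span of 46.4 kb with 7 annotated transcripts that reaches across HOXA4, HOXA5 and HOXA6. Of these HOXA4 and HOXA6 were listed at 0 in every library, and the highest HOXA5 value was 0.182 TPM, in 50 h replicate 2.

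HOXB3 was listed at 0 at 34 h, with 0.0158 and 0.182 TPM (42 h), 0.0324 and 0.0435 TPM (50 h) and 1.25 and 0.783 TPM (72 h) later. The 42 h values spanned the 50 h values, and both 72 h values stood above all earlier ones. It was not tested in the fit of filtered genes. Without the filter, where 1.47% of 22275 genes were raised from 50 to 72 h, the difference of HOXB3 was 0.95 ± 0.13 (limma adjusted p 0.0213). HOXB3 spans 56.04 kb of chromosome 17, from 48548870 to 48604912 on the minus strand, across HOXB4, HOXB5 and HOXB6, and these 3 genes were listed at 0 in every library.

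Paralogs in different clusters thus differed in course. In group 3, HOXA3 was the first of the 9 genes to reach 1 TPM and HOXB3 was still under 0.05 TPM at 50 h. In group 2, HOXA2 was above HOXB2 in both 50 h libraries, and at 72 h HOXB2 was 1.66 and 2.19 times HOXA2 in replicates 1 and 2. Within the HOXB cluster the 72 h levels were lower at each higher group number, from HOXB1 through HOXB2 and HOXB3 to HOXB4, and no neighbors in that order overlapped. HOXB1 was 2.75 and 3.39 times HOXB2 in the 2 libraries.
Over all 9 genes at 72 h the order was HOXB1, HOXB2, HOXA2, HOXA3, HOXB3 and then the genes at 0. HOXA3 and HOXB3 overlapped, with ratios of HOXB3 to HOXA3 of 1.04 and 0.684, and every other pair of neighbors above 0 was apart in both libraries. At 50 h the order was HOXA3, HOXB1, HOXA2, HOXD1, HOXB2 and HOXB3. There HOXA3 was 4.37 and 3.20 times HOXB1 in the 2 libraries, and HOXD1 and HOXB2 overlapped. With 2 libraries a time point an exact permutation test cannot give a p below 0.333, so these orders were not tested.

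**Figure D3:**
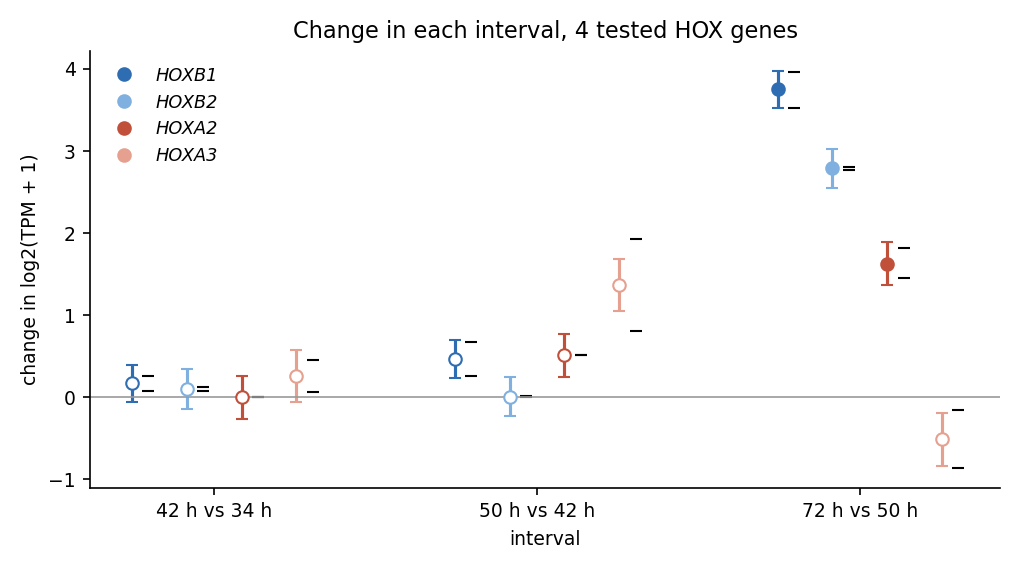
Change in log2(TPM + 1) over each interval for the 4 tested genes (points, with SE bars from limma; filled points have an adjusted p under 0.05) and the change within each replicate number (black ticks to the right). HOXB1, HOXB2 and HOXA2 rose from 50 to 72 h by 3.75, 2.79 and 1.63, while HOXA3 had 1.37 from 42 to 50 h and -0.51 from 50 to 72 h, neither called.

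The HOXA genes held most of the summed level of the 9 genes at 50 h and the HOXB genes held most of it at 72 h. At 42 h the sum was 0.218 and 0.8 TPM, of which the HOXB genes held 77% and 54.1% and the HOXA genes 23% and 45.9%, so the HOXB share was the larger at this low level too. At 50 h the sum was 4.30 and 2.56 TPM, of which the HOXA genes held 80% and 70.6% and the HOXB genes 19.1% and 21.2%. At 72 h it was 31.7 and 32.4 TPM, of which the HOXB genes held 83.4% and 87.6%, a mean of 85.5% ± 2.97 (SD, n = 2).
Between 50 and 72 h the HOXA sum still went from 3.44 and 1.81 TPM to 5.25 and 4.02 TPM, while the HOXB sum went from 0.82 and 0.543 TPM to 26.5 and 28.4 TPM. Both clusters were therefore higher at 72 h in both libraries, and the shift in shares came with the larger gain of the HOXB genes. The HOXD genes held 0.92% and 8.21% of the sum at 50 h, through HOXD1 alone, and none of it at 72 h.

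**Figure D4:**
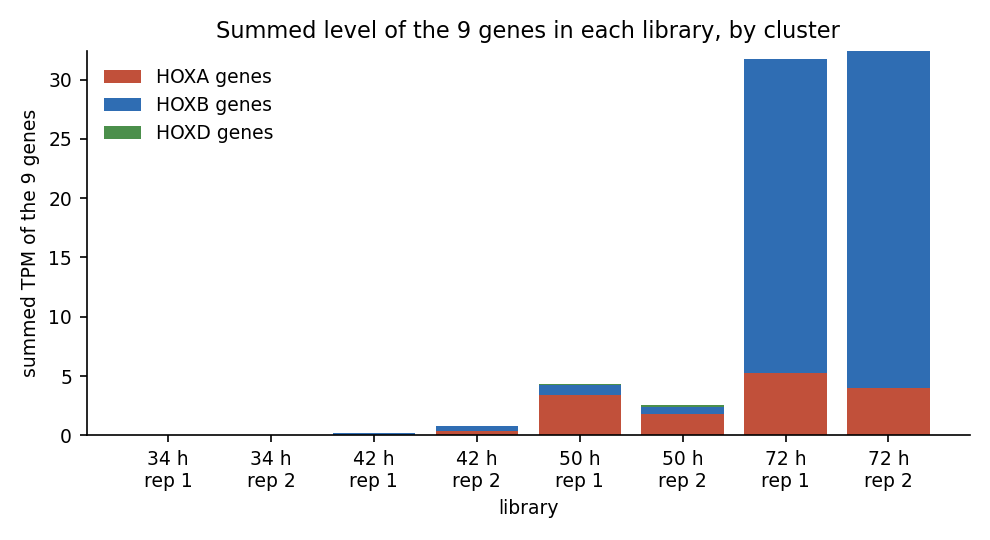
Summed TPM of the 9 genes in each of the 8 libraries, stacked by cluster (HOXA red, HOXB blue, HOXD green). The 50 h bars are mostly HOXA (80% and 70.6%) and the 72 h bars mostly HOXB (83.4% and 87.6%).

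Genes of group 4 and beyond were at or near 0 in the other clusters as well. HOXC4 had at most 0.337 TPM in any library, and HOXD4 was listed at 0 in all 8. Of the 27 HOX genes of groups 5 to 13, which act farther toward the tail, 22 were listed at 0 in all 8 libraries and none reached 1 TPM, with a highest value of 0.236 TPM.

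The genes whose course was most like that of each called gene were taken from 11540 tested genes with a mean of at least 5 TPM at some time point, by Pearson's r of log2(TPM + 1) over the 8 libraries. For HOXB1 they were H1F0, LIX1L, CYFIP2, CTNNA2 and HOXB2, with r from 0.992 to 0.997. For HOXB2 they were ZNF503, CLEC10A, CYP26C1, LRP2 and CELF5, with r from 0.995 to 0.998, and for HOXA2 VGLL3, MEIS3, SOX1, GAL3ST1 and CTNNA2, with r from 0.991 to 0.995. For HOXA3 they were CDPF1, PQLC3, CLIP1, BMP2K and GPHA2, with r from 0.952 to 0.978, and none of these was shared with the other 3 genes. Between the members, HOXA2, HOXB1 and HOXB2 had r from 0.972 to 0.992 with each other, and HOXA3 had 0.333 to 0.512 with them. The 8 libraries are 4 pairs of like samples, so any gene that moves mainly at 72 h scores high with HOXB1, HOXB2 and HOXA2.

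Among the proteins that bind DNA together with HOX factors, the MEIS, PBX and PKNOX cofactors, all 9 genes on the list passed the filter, and MEIS3 stood at 13.5 and 13.7 TPM at 34 h, when the 9 HOX genes were listed at 0. From 34 to 72 h 7 of the 9 rose and 2 fell, with a median change of 0.75 against 0.06 for all genes. MEIS2 rose from 2.11 and 3.25 TPM (34 h) to 18.7 and 14.8 TPM (42 h) and 86.8 and 95.8 TPM (72 h; change of 2.27 ± 0.18 at 42 h, limma adjusted p 0.000546). MEIS3, whose course lay close to that of HOXA2, rose from 22.1 and 20.2 TPM at 50 h to 56.4 and 49.5 TPM at 72 h (1.28 ± 0.13, limma adjusted p 0.00113).

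Of 13 known regulators of anterior HOX genes 10 passed the filter, and they changed at different times. The CDX factors CDX1 and CDX2 rose from 34 to 42 h, before any of the 9 HOX genes reached 1 TPM, and EGR2 and RARB rose from 50 to 72 h, as did HOXB1, HOXB2 and HOXA2. The receptor genes NR6A1 and RXRG were raised at 50 and 72 h against 34 h, and RXRA at 72 h. None of them was called between successive time points. RARB reached 1 TPM in the 72 h libraries alone, and CDX1 in the 42 and 50 h libraries alone. Both passed the filter only through them, which fixed the direction of their changes, so their calls carry no support. CDX2 and RXRG were under 1 TPM at 34 h and passed only through later libraries, so their rises against 34 h carry none either. CDX1 was listed at 0 at 34 h, stood at 2.98 and 2.53 TPM (42 h) and 3.07 and 2.59 TPM (50 h), and ended at 0.0556 and 0.0564 TPM (72 h). Its fall from 50 to 72 h gave a change of -1.86 ± 0.24 (limma adjusted p 0.00316). EGR2, a zinc finger factor of the third and the fifth rhombomere that acts on HOXA2 and HOXB2, went from 0.599 and 0.284 TPM (50 h) to 46.9 and 38.7 TPM (72 h; change of 4.93 ± 0.27, limma adjusted p 0.000104). RARB, a retinoic acid receptor gene that is itself induced by retinoic acid, went from 0.278 and 0.239 TPM (50 h) to 2.93 and 2.21 TPM (72 h; change of 1.5 ± 0.26, limma adjusted p 0.0133; 0.00277 to 0.105 over the alternatives, 5 of which lost the call).

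Other lists gave changes in both directions in the interval in which the HOXB genes rose. Among genes of retinoic acid supply and removal, CRABP1, CYP26A1 and CYP26C1 rose from 50 to 72 h and DHRS3 fell. CYP26C1 reached 1 TPM in the 72 h libraries alone, so the filter fixed its direction. Of 9 hindbrain segment genes without HOX genes 5 were tested, and 2 rose, EGR2 and EPHA4, where 2.92% of all tested genes were raised. Of 22 Polycomb and trithorax genes, which keep HOX clusters silent or active, 0 rose and 3 fell (JARID2, KDM6A and PHC1), with a median of 0.11 against 0.01 for all genes, of which 657 of 14908 were lowered. Of 14 alternatives 8 lost the JARID2 call, 6 lost the PHC1 call and 0 lost the KDM6A call. These lists and the 9 genes were read from the same libraries, and no link between them was tested.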

How the data were processed

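Gene-level TPM were used as deposited by the authors in 1 table of 37951 Ensembl rows and 8 value columns, 1 per library, each summing to 1000000. Salmon 1.9.0 and GRCh38 are named in the submitters' processing notes; the annotation, filters and strand setting are not given in the sources used here. Read depth cannot be recovered from TPM, so precision rests on 2 libraries a time point. Rows were summed by symbol. Symbols with at least 1 TPM in at least 2 libraries (14908) were taken as log2(TPM + 1) and fitted with limma 3.58.1 in R 4.3.3, 1 mean for each time point over all 8 libraries and a variance trend, with Benjamini-Hochberg adjustment, two-sided; the fit was tested on simulated data. The batch label pairs the libraries; differences between replicates correlated at -0.104 to 0.195 across genes between time points. Alternatives were a pseudocount of 0.1, no filter, TMM rescaling (a trimmed mean of ratios), no variance trend, compared time points alone, the replicate block, Ensembl rows apart and leaving out each library. Positions are from GENCODE release 29. The named genes are the 9 genes, those on lists and the 5 nearest in course. The members and lists were chosen with earlier results of these data known. A list of 16 noncoding RNAs of the clusters was not analysed here, and results of some listed genes are not reported here.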

Additional observations from a re-analysis of the deposited data

How the results depend on the processing

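Of the 20 changes of HOXA2, HOXA3, HOXB1 and HOXB2 that were tested, 16 stayed on their side of the threshold in all 15 alternatives; the 4 others are HOXA3 at 50 and 72 h against 34 h, HOXB1 at 50 h against 34 h and HOXA2 from 50 to 72 h, given above. The HOXB2 difference from 42 to 50 h, not called, lay between -0.02 and 0.04 when single libraries were left out. The replicate block, which follows the batch label, changed no call of these genes and moved 1 count of changed genes by over 1.5 times, from 14 to 7 between 42 and 50 h. That count was 8 without a filter, 27 without a variance trend, 4 with Ensembl rows apart and 0 with the compared time points alone (1089 genes at an unadjusted p under 0.05 by limma). Rescaling turned its 9 raised and 5 lowered genes into 9 and 9. Fitting the compared time points alone also gave 171 changed genes in place of 384 at 42 h against 34 h, 431 in place of 933 at 50 h against 34 h and 367 in place of 1093 from 50 to 72 h. Leaving out single libraries gave 161 to 372, 398 to 793 and 1867 to 3629 (in place of 3578) at 42, 50 and 72 h against 34 h, 1 to 8 between 42 and 50 h, and 316 to 911 from 50 to 72 h; these fits have fewer libraries. The number of the 9 genes reached at 50 h was 3 at a threshold of 0.1 TPM and 0 at 5 TPM, and at 72 h it was 2 at 5 TPM. Without either replicate it was 4 to 5 at 72 h, and the HOXB share was 83.4% to 87.6%.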
